A study of Mus musculus with 3 samples.

Results

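Enzymes and complex subunits that write, erase or move on chromatin were described here at the level of their own genes, as RNA bound to chromatin in mouse macrophages. The set holds 55 genes, listed by symbol and found once each among the 55536 genes of the tables. It comprises 17 writers of histone marks, 20 erasers, 14 nucleosome remodellers and 4 enzymes of DNA methylation. All 55 were measured in every library, and none was lost to a filter on low values.

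The cells were bone-marrow-derived macrophages of strain C57BL/6J, primary cells, stimulated for 20 min with lipid A at 100 ng/ml, the lipid anchor of lipopolysaccharide through which the receptor TLR4 senses it. RNA of the chromatin fraction was depleted of ribosomal RNA and sequenced as total RNA. The series has 1 group of 3 libraries, replicates 1, 2 and 3, made from 1 µg, 250 ng and 500 ng of RNA. No untreated cells were analysed here, so the values are levels and say nothing of induction, and the labels give 1 donor entry and do not say whether the replicates came from separate animals, so the spread between them may be technical.

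Histone methyltransferases and acetyltransferases add marks to histone tails, and demethylases and deacetylases take them off. Remodellers of the BAF, CHD, NURF and INO80 families use ATP to slide, evict or exchange nucleosomes. DNA methyltransferases methylate cytosine and TET enzymes oxidise that mark. In macrophages, several of these enzymes are known to act at enhancers and promoters of inflammatory genes, and Kdm6b, a demethylase of lysine 27 of histone H3, is a known target gene of lipopolysaccharide.

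Libraries held 16317439, 16245280 and 12439931 expected counts in replicates 1, 2 and 3, of which the 55 genes took 1.20%, 1.28% and 1.24%. A member had between 147 and 24130 expected counts in a library. Levels are given in TPM, a transcript abundance scaled for length and for the total of a library. Small nucleolar RNAs took 55.7%, 46.4% and 40.4% of that total, and protein-coding genes took 15.8%, 18.02% and 24.7%. The summed TPM of the 55 genes was 1737, 2264 and 2624, or 1.10%, 1.26% and 1.06% of the TPM of coding genes. The macrophage identity was measured with 11 marker genes, all at or above 1 TPM in every library, with a summed level of 1061 to 1620 TPM. None of 25 markers of T and NK cells, B cells, neutrophils, erythroid cells, mast cells or fibroblasts reached 1 TPM in every library, and the highest summed level of any of these lists was 0.77 TPM. Among them Cd3e, Cd3d, Cd2, Ly6g, Mcpt4 and Tpsb2 were listed at 0 in every library. In bulk RNA, fewer cells of a type and less RNA per cell cannot be told apart.

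All 55 genes reached 1 TPM in every library, as did 40.7% of 21951 coding genes. A level of 10 TPM in every library was reached by 42 members and by 15.2% of coding genes. By mean TPM, all 55 lay above percentile 50 of coding genes, 53 above percentile 75 and 34 above percentile 90. The median member level was 27.1 ± 5.98 TPM (SD of the library medians, n = 3), against 9.01 ± 2.60 TPM for the 8938 coding genes at or above 1 TPM in every library. Members spanned a 49.5-fold range. The 55 genes were chosen with earlier results of these data known, and the part of that choice in these levels was not tested. Among 84 related genes outside the set, described below, 77 reached 1 TPM in every library. The median over those 84 was 14.0 ± 4.73 TPM (SD, n = 3).

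**Figure D1:**
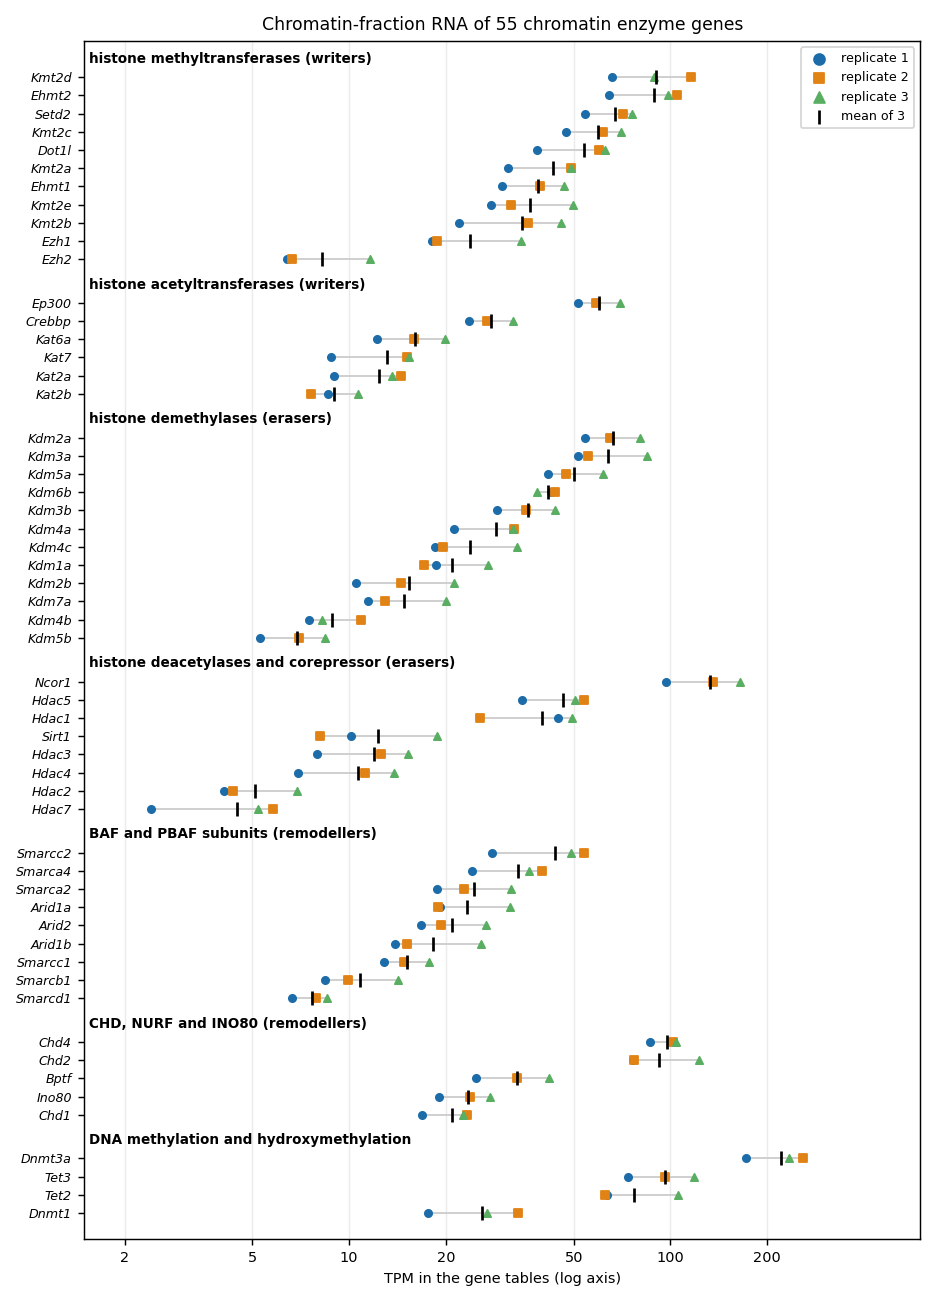
TPM of each of the 55 genes in replicates 1, 2 and 3 (points), with the mean of 3 libraries (black tick), on a log axis and grouped by class. Dnmt3a is the highest gene at a mean of 221 TPM and Hdac7 the lowest at 4.47 TPM, and most genes have their lowest point in replicate 1.

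The DNA methylation enzymes had the highest median of the broad classes, at 86.6 ± 22.5 TPM (SD, n = 3). That rank holds for the genes listed in the class and not for the whole pathway. Tdg, Uhrf1, Dnmt3b and Tet1, which are outside the set, had a median of 2.83 TPM (mean of the library medians, n = 3). Dnmt3a, a methyltransferase that places new methyl marks on unmethylated DNA, was the highest of all members (GRCm38 chromosome 12, 3806007 to 3914443, plus strand). It had 171.57, 258.05 and 233.84 TPM in replicates 1, 2 and 3, a mean of 221 ± 44.6 (SD, n = 3). Only 72 coding genes had a higher mean, and Dnmt3a alone made up 9.88%, 11.4% and 8.91% of the summed TPM of the 55 genes. Tet3, an oxidase of 5-methylcytosine, had 73.75, 96.30 and 118.20 TPM. Its relative Tet2 had 63.27, 62.65 and 105.36 TPM, and was below Tet3 in each library. Dnmt1, which copies methylation onto newly replicated DNA, was the lowest of the 4, at 17.61, 33.44 and 26.79 TPM. In each library Dnmt3a was above every other gene of this class, and Dnmt1 below.

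The class median was 36.7 ± 9.59 TPM for writers, 23.8 ± 5.37 TPM for remodellers and 22.2 ± 6.48 TPM for erasers (SD, n = 3 for each). On the log2(TPM + 0.1) scale the writers' median exceeded the erasers' by 0.57, 0.97 and 0.66 in replicates 1, 2 and 3, a mean difference of 0.73 ± 0.21 (SD, n = 3). It exceeded the remodellers' by 0.54, 0.64 and 0.66, a mean of 0.62 ± 0.06 (SD, n = 3). With CPM (counts scaled to the library total) per kb of the longest coding transcript in place of TPM, a check added after the values were seen, these differences were 0.42 and 0.18. Erasers and remodellers differed by -0.025, -0.33 and 0.0037, so their order was not held in every library. The mean difference was -0.12 here and 0.18 in another set of tables described next. The median of DNA methylation enzymes exceeded that of writers by 1.31, 1.11 and 1.26 in the 3 libraries, a mean of 1.22, against 0.66 in those other tables and 1.499 with CPM per kb. Among related genes outside the set the order was the reverse. There the median was 2.83 TPM for DNA methylation genes and 17.4 TPM for histone writers. The excess of DNA methylation enzymes over writers thus depends on which genes were listed. A class is a list of genes and not a set of replicates, and no test of the differences between classes was made.

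Each library came with a further transcript table that its authors made with no alignment among the inputs. These are called the second tables, and the gene and transcript tables used above the first tables. Summed per gene, the second tables gave a median of 1.401 times the level of the first. For coding genes at or above 1 TPM the median was 1.54 times. The level was over 2 times higher for 11 of the 55 genes, or 20.0%, beside 25.1% of those coding genes. It was over 4 times higher for 0 members, and was lower in the second tables for 2, Ehmt2 and Kat2a. Kdm4b, a demethylase of lysine 9 of histone H3, showed the largest ratio, with a mean of 34.5 TPM in the second tables against 8.86 in the first. Of that, 19.6 TPM was assigned to Kdm4b-206, a processed transcript of 130 bases that was listed at 0 in the first tables. Kdm3b had 83.1 against 36.0 TPM, and 43.1 TPM of the former was assigned to Kdm3b-203, a processed transcript of 42 bases, also listed at 0 in the first. The order of the 55 genes was similar, with a Spearman correlation of 0.96 across genes that share libraries and lengths.

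**Figure D2:**
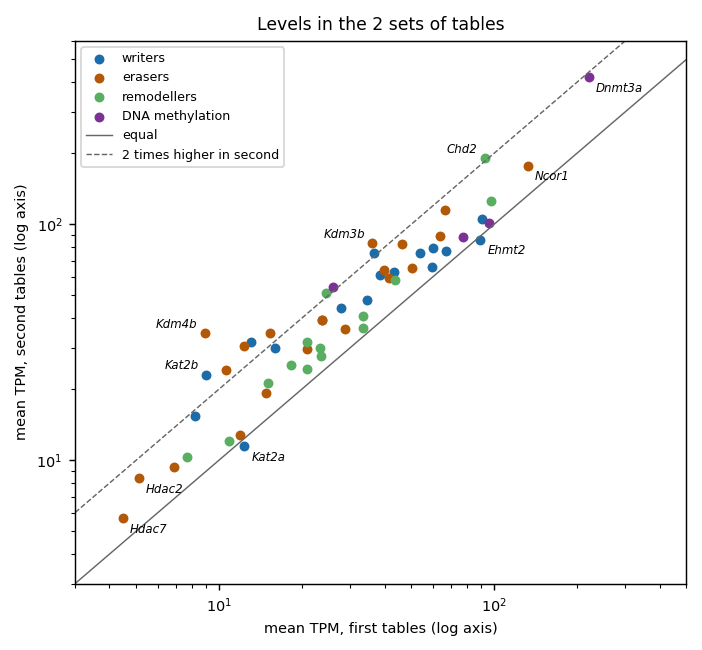
Mean TPM of the 55 genes in the first tables (x) and the second tables (y), both on log axes, coloured by broad class; the solid line marks equal values and the dashed line values 2 times higher in the second tables. Most genes lie above the line of equality, by a median of 1.401 times, and Kdm4b lies farthest from it.

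Among the 11 histone methyltransferases, with a median of 43.4 ± 10.5 TPM (SD, n = 3), 10 reached 10 TPM in every library. Kmt2d, which monomethylates lysine 4 of histone H3 at enhancers, led with 65.88, 116.28 and 89.19 TPM. Ehmt2, also known as G9a, which dimethylates lysine 9 of histone H3, followed at 64.36, 105.07 and 97.99 TPM. Their ranges overlapped, and neither was above the other in all 3 libraries. Setd2, which trimethylates lysine 36 of histone H3, had 67.1 ± 11.4 TPM, and Dot1l, which methylates lysine 79 of histone H3, had 53.7 ± 13.3 TPM (SD, n = 3 for each). Ezh2, a catalytic subunit of Polycomb repressive complex 2, was the lowest of the class in every library, at 6.41, 6.64 and 11.59 TPM.

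For the 6 acetyltransferases the median was lower, 14.6 ± 3.63 TPM (SD, n = 3). Only 3 of them reached 10 TPM in every library. Ep300, a coactivator that acetylates lysine 27 of histone H3, had 51.56, 58.86 and 69.51 TPM. Its close relative Crebbp had 23.62, 26.93 and 32.42 TPM, less than Ep300 in every library. Kat2b, also known as PCAF, was the lowest of the class by its mean, at 8.62, 7.60 and 10.65 TPM.

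For the 12 demethylases the median was 26.3 ± 6.43 TPM (SD, n = 3). Of these, 10 were at 10 TPM or more in every library. Kdm2a, a demethylase of lysine 36 of histone H3 that binds unmethylated CpG islands, had 54.23, 64.67 and 80.36 TPM. Kdm3a, a demethylase of lysine 9 of histone H3, had 51.60, 55.26 and 84.59 TPM, below Kdm2a in replicates 1 and 2 and above it in replicate 3. Kdm5b, a demethylase of lysine 4 of histone H3, had the lowest mean, at 5.26, 6.98 and 8.42 TPM, though Kdm4b was lower in replicate 3. Kdm6b had 42.63, 43.73 and 38.40 TPM, the fourth highest mean of the class. Kdm1a, the flavin-dependent demethylase also known as LSD1, had 20.9 ± 5.32 TPM (SD, n = 3).

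Deacetylases with their corepressor had the lowest class median in the first tables, 12.6 ± 4.04 TPM (SD, n = 3). In the second tables the median of the gene means was 27.3 TPM for this class. It was lower there, at 25.3 TPM, for the BAF and PBAF subunits described below. In the first tables, no more than 3 of the 8 deacetylase and corepressor genes were at 10 TPM or more in every library. They also held both ends of the erasers. Ncor1, the scaffold that recruits and activates Hdac3, was second among all 55 genes by its mean, at 97.18, 135.45 and 164.38 TPM (chromosome 11, 62316426 to 62458541, minus strand). Hdac5, a class IIa deacetylase, came next in the class by its mean at 34.40, 53.68 and 50.60 TPM. Hdac7, also of class IIa, was the lowest of all 55 by its mean, at 2.41, 5.78 and 5.22 TPM (chromosome 15, 97792664 to 97844502, minus strand). In replicate 2 Hdac2 was lower than Hdac7. Hdac3 had 11.9 ± 3.72 TPM (SD, n = 3), well below its partner Ncor1 in every library.

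The 9 subunits of the BAF and PBAF complexes spanned a 5.68-fold range around a median of 20.8 ± 5.23 TPM (SD, n = 3). Smarcc2, a scaffold subunit, was the highest at 27.79, 53.85 and 49.13 TPM. Smarca4, also known as BRG1, the ATPase, had 24.19, 39.79 and 36.40 TPM, below Smarcc2 in each library. Smarcd1, an accessory subunit that contacts transcription factors, was the lowest by its mean, at 6.64, 7.86 and 8.51 TPM. The 5 remodellers of the CHD, NURF and INO80 families, with a median of 33.4 ± 8.61 TPM (SD, n = 3), were all at or above 10 TPM in every library. Chd4, the ATPase of the NuRD complex, which also holds Hdac1 and Hdac2, had 86.53, 101.84 and 104.38 TPM. Chd2 had 76.57, 77.17 and 123.17 TPM, below Chd4 in replicates 1 and 2 and above it in replicate 3. Chd1, which acts with elongating RNA polymerase, had the lowest mean, at 16.80, 23.25 and 22.66 TPM. Chd2 shares 18.4% of its exon bases with a gene on its own strand, 1810026B05Rik, which had a mean of 42.2 TPM, and how reads were divided between them was not tested.

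Related genes within a family were compared inside each library, in 17 pairs. All 17 pairs kept a single direction in 3 of 3 libraries, and 10 of 17 differed by more than 2-fold on average. An exact two-sided sign-flip permutation test over 3 libraries cannot go below p = 0.25, which every pair gave, also after Benjamini-Hochberg adjustment over the 17. The direction was kept in 15 pairs with the second tables, in 13 pairs with coding isoforms alone, and in 16 pairs with CPM per kb of coding transcript. In 12 pairs it was kept under all 3. Differences below are in log2(TPM + 0.1), the first gene minus the second, as mean ± SD over 3 libraries.

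**Figure D3:**
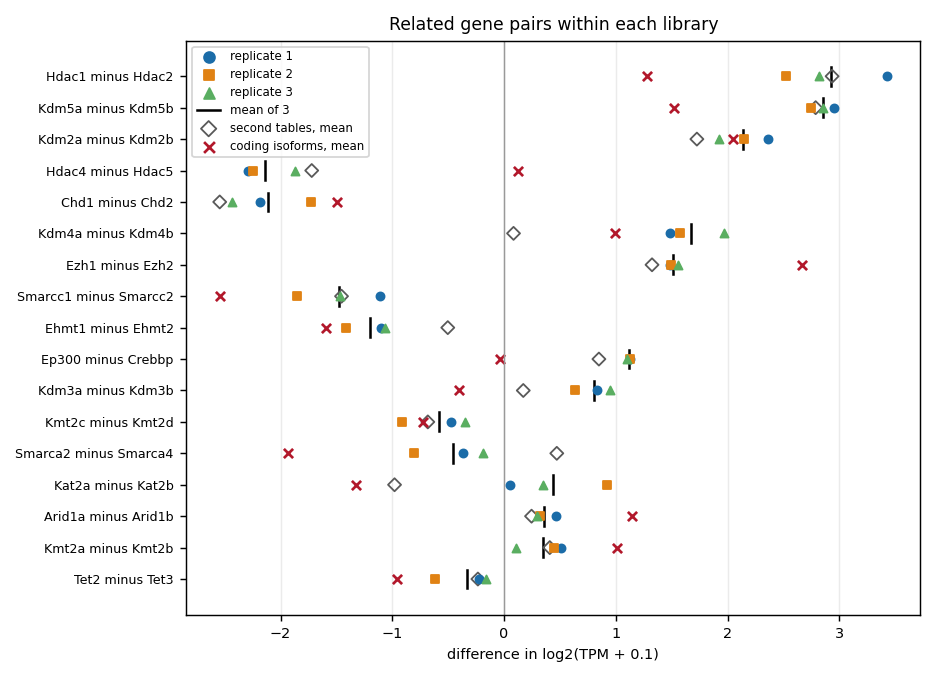
Difference in log2(TPM + 0.1) between the genes of 17 related pairs, in each library (points) with the mean of 3 (black bar), the mean in the second tables (open diamond) and the mean over coding isoforms alone (cross). Hdac1 minus Hdac2 has the largest mean, 2.92, and for Hdac4 minus Hdac5 the cross lies on the other side of 0 from the library points.

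Hdac1 and Hdac2, the paired deacetylases of the NuRD, Sin3 and CoREST complexes, differed most. Hdac1 had 44.78, 25.58 and 49.27 TPM, and Hdac2 had 4.07, 4.36 and 6.90 TPM, a difference of 2.92 ± 0.46, or 7.59-fold (n = 3). On coding isoforms alone the difference was 1.28, and retained-intron isoforms held 78.5% of the Hdac1 level. Kdm5a had 41.46, 47.30 and 61.69 TPM against the values of Kdm5b given above, a difference of 2.85 ± 0.11, or 7.22-fold (n = 3), and one of 1.52 on coding isoforms. Kdm2a exceeded Kdm2b, which had 10.47, 14.52 and 21.16 TPM, by 2.14 ± 0.22 (n = 3), and by 2.05 on coding isoforms.

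Hdac4 was below Hdac5, at 6.94, 11.23 and 13.75 TPM, a difference of -2.14 ± 0.23 (n = 3). On coding isoforms alone that pair differed by 0.12, in the other direction. Chd1 was below Chd2 by a difference of -2.12 ± 0.36 (n = 3), and by -1.49 on coding isoforms. Kdm4a exceeded Kdm4b by 1.67 ± 0.25 (n = 3), and by 0.08 in the second tables, where the 130-base transcript named above adds to Kdm4b. Ezh1, the Polycomb methyltransferase known from cells that do not divide, exceeded Ezh2 by 1.51 ± 0.04 (n = 3), and by 2.67 on coding isoforms. Ep300 exceeded Crebbp by 1.12 ± 0.02 (n = 3), the smallest spread of any pair, while on coding isoforms the difference was -0.034.

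By gene TPM, the 3 closest pairs differed by less than 1.3-fold. Arid1a, the alternative DNA-binding subunit of BAF to Arid1b, had 19.23, 18.90 and 31.57 TPM against 13.94, 15.09 and 25.76 TPM, a difference of 0.36 ± 0.09 (n = 3). Kmt2a, also known as MLL1, had 31.27, 48.97 and 49.19 TPM against 21.98, 35.91 and 45.80 TPM for Kmt2b, a difference of 0.35 ± 0.22 (n = 3). Tet2 and Tet3 differed by -0.34 ± 0.25 (n = 3). On coding isoforms these 3 pairs differed by 1.15, 1.01 and -0.96, and the closest pairs there were Ep300 with Crebbp and Hdac4 with Hdac5. Per kb of coding transcript in CPM they differed by 1.15, 1.06 and -0.60. For Kat2a and Kat2b, Smarca2 and Smarca4, and Kdm3a and Kdm3b the direction changed with the tables or isoforms used, with values of 0.44, -0.45 and 0.81 in the first tables. In the second tables these were -0.98, 0.47 and 0.17, and on coding isoforms -1.32, -1.93 and -0.41.

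Annotation M21 gives the 55 genes 524 transcripts, of which 265 are coding, 135 are retained-intron, 75 are processed transcripts and 49 are targets of nonsense-mediated decay. A retained-intron isoform keeps sequence that the coding isoform splices out, and a processed transcript has no open reading frame assigned. In total RNA of the chromatin fraction, reads of such isoforms and of RNA not yet spliced cannot be told apart. The shares below are therefore of reads as assigned to annotated isoforms. These 2 types together are called noncoding here, and 52 of the 55 genes have one. Smarca4, Kmt2d and Kmt2a have none. The median share of a gene's TPM in noncoding isoforms was 42.5%, 35.5% and 43.8% in replicates 1, 2 and 3, a mean of 40.6% ± 4.45 (SD, n = 3). Over the 7454 coding genes at or above 1 TPM that have such an isoform it was 48.1% ± 1.58 (SD, n = 3), so the members' median was the lower in each library. A noncoding share over 50% on average was found in 17 of 52 members, or 32.7%, against 46.9% of those coding genes.

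The share depends on the unit, as TPM divides counts by length. As a share of expected counts in place of TPM, the members' median was 13.5%. No value in that unit is given for coding genes, so the comparison with them is in TPM alone. Taking each gene's mean share first, the median was 41.3% for members and 48.1% for coding genes in the first tables, and 48.5% and 53.5% in the second. There, 25 members, or 48.1%, passed 50%, beside 55.4% of coding genes, and 15 of the 25 were among the 17 of the first tables.

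**Figure D4:**
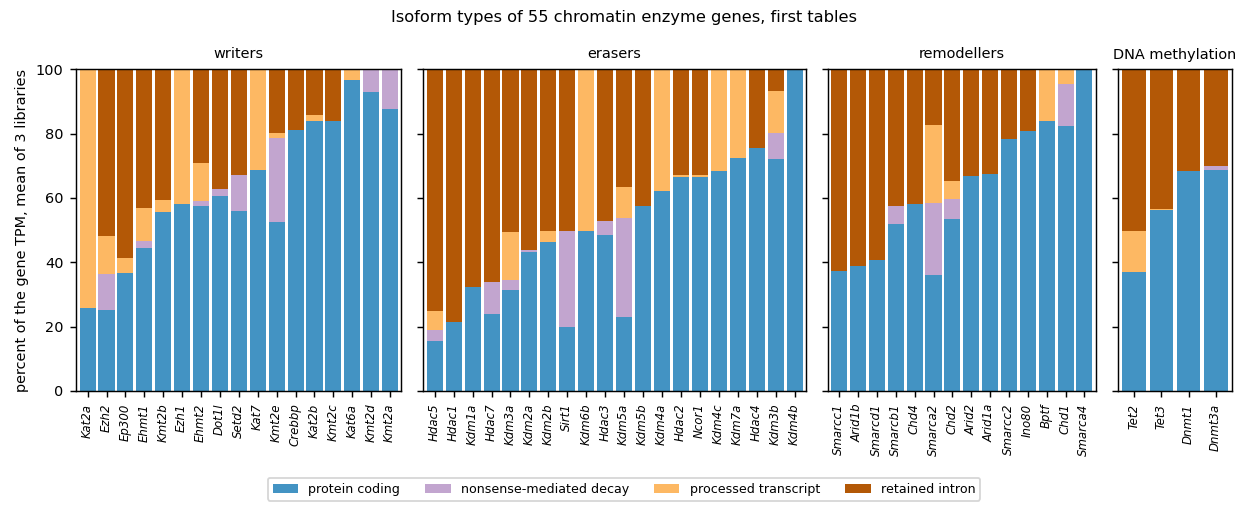
Share of each gene's TPM in coding, nonsense-mediated decay, processed-transcript and retained-intron isoforms (percent, mean of 3 libraries, first tables), by broad class and sorted by noncoding share. Kat2a leads the writers at 74.3% noncoding and Hdac5 the erasers at 80.9%, while Smarca4, Kmt2d and Kmt2a have no noncoding isoform.

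By class, the median noncoding share was 45.0% ± 3.74 for erasers, 38.0% ± 3.01 for remodellers and 37.6% ± 2.95 for writers (SD, n = 3 for each). Erasers were above writers and remodellers in each library, by 48.3% against 40.6% and 40.3% in replicate 1, 40.9% against 34.7% and 34.6% in replicate 2, and 45.9% against 37.4% and 39.1% in replicate 3. In the second tables the means were 54.5%, 37.7% and 47.0% for erasers, remodellers and writers. More than 50% noncoding were 9 of 20 erasers, 4 of 15 writers with such an isoform, 3 of 13 remodellers and 1 of 4 DNA methylation enzymes, Tet2. Of coding genes at or above 1 TPM with such an isoform, 46.9% passed 50%. Their median share was 48.1% in the first tables and 53.5% in the second. Erasers thus lay near the share of coding genes, with writers and remodellers below it.

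The highest shares were those of Hdac5, with 83.8%, 78.6% and 80.5% in replicates 1, 2 and 3, and Hdac1, with 82.0%, 74.1% and 79.3%. Kat2a followed with 86.7%, 66.2% and 70.0%, and Kdm1a with 67.1%, 59.1% and 76.4%. These 4 genes include both class I and class IIa deacetylases and a coactivator acetyltransferase. For each, an exon-intron border of the coding span is printed below because the noncoding isoform named holds it unspliced, while the leading coding isoform splices the intron out. Bases of the exon are in lower case and the first bases of the intron in capitals, 30 of each, 5′ to 3′ on the gene's strand. They come from GENCODE M21 transcripts on GRCm38. Kat2a-204 holds only part of its intron.
Hdac5-216: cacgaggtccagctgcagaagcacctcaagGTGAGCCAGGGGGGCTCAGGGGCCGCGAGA
Hdac1-206: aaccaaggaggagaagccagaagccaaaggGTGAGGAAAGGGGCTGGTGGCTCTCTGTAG
Kat2a-204: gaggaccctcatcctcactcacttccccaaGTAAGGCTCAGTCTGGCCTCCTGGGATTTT
Kdm1a-209: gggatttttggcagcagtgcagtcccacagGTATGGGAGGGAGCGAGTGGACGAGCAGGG
In all 4 the capitals open with GT, the usual first bases of an intron.

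The Hdac5 border lies at chr11:102206877-102206936, minus strand, at intron 4 of Hdac5-204, and Hdac5-216 holds all 132 bases of that intron. Hdac5-216 had 6.75 ± 2.90 TPM (SD, n = 3), 14.2% of the gene, and 6.49 TPM in the second tables. The Hdac1 border lies at chr4:129516870-129516929, minus strand, at intron 13 of Hdac1-201, whose 263 bases are all within Hdac1-206. That isoform had 26.21, 8.99 and 23.11 TPM in replicates 1, 2 and 3, 46.9% of the gene. The coding isoform Hdac1-201 had 8.08, 6.61 and 10.18 TPM, so both were lowest in replicate 2.

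The Kat2a border lies at chr11:100710415-100710474, minus strand, at intron 6 of Kat2a-202, and Kat2a-204, a processed transcript, holds 195 of the 955 bases of that intron. Kat2a-204 had 6.92 ± 0.70 TPM (SD, n = 3), 57.5% of the gene, against 2.71 TPM for the coding Kat2a-202. The Kdm1a border lies at chr4:136552431-136552490, minus strand, at intron 18 of Kdm1a-202, and Kdm1a-209 holds all 442 bases of it. Kdm1a-209 had 3.37 ± 1.56 TPM (SD, n = 3), 15.6% of the gene, and the coding Kdm1a-202 had 3.65 TPM.

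The lowest shares among members with a noncoding isoform were those of Kdm4b, Kat6a, Chd1 and Kmt2c. Kdm4b had 0% in each library of the first tables and a mean of 63.3% in the second tables. Kat6a, an acetyltransferase of the MOZ family, had 4.19%, 6.14% and 0%, and a mean of 45.9% in the second tables, where its 419-base processed transcript Kat6a-203 had 13.9 TPM against 0.50 in the first. Chd1 had 4.70%, 5.72% and 3.31%, and 18.4% in the second tables. Kmt2c, an enhancer methyltransferase related to Kmt2d, had 18.6%, 11.7% and 17.6%, and 15.7% in the second tables. Of these 4, Kmt2c alone had a mean share within 5 points of that in the second tables. Over the 52 genes the shares of both sets had a Spearman correlation of 0.68, and 8 genes differed by more than 20 percentage points.

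A coding isoform was the most abundant isoform of 38 of the 55 genes, or 69.1%, a retained-intron isoform of 14, a processed transcript of 2 and a nonsense-mediated decay isoform of 1. Among coding genes at or above 1 TPM in every library a coding isoform led in 63.0% and a retained-intron isoform in 28.6%. In the second tables the members' counts were 24, 20, 9 and 2, and 27 genes had the same leading isoform in both sets. The share of a gene's TPM in its leading isoform had a median of 38.5%, and this isoform was under 1000 bases long in 6 genes. Kdm6b has 2 annotated isoforms, the coding Kdm6b-201, at 20.6 TPM, and a processed transcript of 743 bases, Kdm6b-202, at 20.97 TPM.

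Dnmt3a has 18 annotated isoforms, of which 4 coding ones start in an upstream region and 2 in an internal region, with RefSeq starts 84.8 kb apart, while other coding ones start elsewhere. The 250 bases before the first RefSeq start of each region are printed to show how they differ, with every CG dinucleotide, the target of DNA methyltransferases, in capitals (RefSeq, GRCm38.p6, plus strand, chr12:3806730-3806979 and chr12:3891494-3891743).
Dnmt3a upstream: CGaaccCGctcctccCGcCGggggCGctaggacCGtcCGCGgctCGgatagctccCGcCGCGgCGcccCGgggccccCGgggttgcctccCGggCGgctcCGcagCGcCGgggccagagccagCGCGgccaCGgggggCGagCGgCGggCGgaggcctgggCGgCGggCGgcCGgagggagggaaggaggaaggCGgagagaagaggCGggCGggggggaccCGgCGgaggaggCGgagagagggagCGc
Dnmt3a internal: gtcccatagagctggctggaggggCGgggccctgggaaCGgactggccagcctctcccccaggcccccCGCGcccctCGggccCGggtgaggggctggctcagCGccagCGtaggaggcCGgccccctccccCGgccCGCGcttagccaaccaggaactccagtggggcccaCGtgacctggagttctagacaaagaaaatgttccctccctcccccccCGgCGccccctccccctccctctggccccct
The upstream window holds 38 CG dinucleotides and the internal one 15. No M21 isoform starts at the first RefSeq start of the upstream region, and the window lies within the annotated gene, since isoforms such as Dnmt3a-212 begin ahead of it. Dnmt3a-203 starts at the internal one. Among all promoter windows of 300 bases in that table, the median was 8, taking the highest window of each of 27025 genes. The 42 members with an entry had a median of 33.5, from 11 to 65, and the 7174 coding genes at or above 1 TPM with an entry a median of 23. The motif TATAAA was searched on both strands of the 300-base windows and was present in 0 of these 42 members, 8.39% of those coding genes and 15.7% of all genes with an entry.

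The 4 coding isoforms of the upstream region, of 827 to 9685 bases, had 53.96, 85.82 and 92.03 TPM in sum, 34.9% of the Dnmt3a level. The 2 that start at the internal region had 11.22, 24.18 and 1.49 TPM. On coding isoforms the upstream sum was the higher in every library. A further 2 isoforms of the upstream region, of the retained-intron type, had 33.94, 41.27 and 48.56 TPM, 18.7% of the gene. Dnmt3a-201, which runs from the upstream region to the gene's end, had 54.2 ± 25.3 TPM, and Dnmt3a-203, the full-length internal form, had 11.22, 22.48 and 1.49 TPM (SD, n = 3). In the second tables the internal sum was 48.9 TPM, but nearly all of it was in Dnmt3a-205, at 48.8 TPM, and Dnmt3a-203 had 0.047 TPM. The 2 sets of tables thus name different internal isoforms. Another 10 isoforms that start elsewhere, of 369 to 2613 bases, held 40.8% of the Dnmt3a TPM in the first tables and 56.3% in the second, so the highest level among the 55 rests in part on partial isoforms. With CPM per kb of the longest coding transcript, which counts every read of the gene against 1 length, the order of the 55 genes had a Spearman correlation of 0.92 with that in TPM.

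The libraries differed in level across the set. In TPM, 48 of the 55 genes (87.3%) were lowest in replicate 1 and 42 (76.4%) were highest in replicate 3. Of coding genes at or above 1 TPM, 72.7% were lowest in replicate 1 and 88.9% highest in replicate 3. The median coefficient of variation over 3 libraries was 24.8% for members and 30.6% for those coding genes. With TPM rescaled to a common total over coding genes alone these were 12.2% and 15.5%. On that scale 32 of the 55 genes, or 58.2%, were highest in replicate 2, the library from 250 ng, as were 34.2% of those coding genes. The small RNA totals given above also differed between the libraries, and their part in these orders was not tested.

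**Figure D5:**
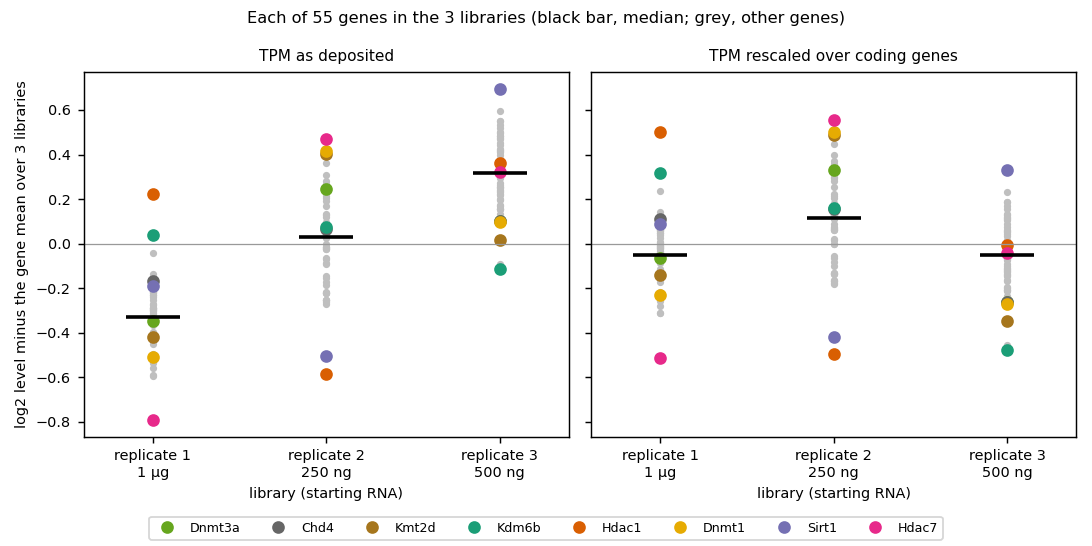
Log2 level of each of the 55 genes in each library, minus its mean over 3 libraries, in TPM as deposited (left) and after rescaling over coding genes (right); 8 genes are coloured, the others are grey and black bars mark the median. The spread between libraries is smaller on the right, and Hdac1 and Sirt1 stay low in replicate 2 in both panels.

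The largest coefficients of variation in TPM were those of Sirt1, Hdac7, Ezh1, Arid1b and Ezh2. Sirt1, an NAD-dependent deacetylase, had 10.12, 8.13 and 18.71 TPM, a coefficient of 45.6%, or 25.1% after rescaling. Hdac7 had one of 40.4%, or 37.3% after rescaling, with its lowest value in replicate 1 on both scales. Ezh1, at 18.11, 18.83 and 34.34 TPM, had 38.6%, which rescaling brought to 14.9%. Arid1b and Ezh2 had 35.7% and 35.6%, and 11.8% and 12.4% after rescaling. All 5 except Hdac7 were highest in replicate 3.

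The steadiest genes in TPM were Kdm6b, Chd4 and Smarcd1, with coefficients of 6.77%, 9.90% and 12.4%. Kdm6b alone among the 55 was lowest in replicate 3. After rescaling it had 270, 243 and 156 TPM, and its coefficient rose to 26.8%, so that its steadiness holds on the deposited scale and not relative to coding genes. Smarcd1 had 12.2% and Chd4 15.1% after rescaling. On that scale Arid2, the DNA-binding subunit of PBAF, had the smallest coefficient, 1.02%, at 105.9, 106.9 and 108.1 TPM. Hdac1 had 34.2% after rescaling, with 284, 142 and 200 TPM.

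The only labelled difference between libraries is the starting amount of RNA, with 1 library per amount. A slope of log2 level on log2 starting RNA was fitted to 15065 genes with edgeR's quasi-likelihood test, with Benjamini-Hochberg adjustment and a call below 0.05. It called 0 of the 55 members higher and 0 lower with more starting RNA, beside 0.551% and 0.0332% of all genes tested, or 0.584% in either direction. At an unadjusted p below 0.05 there were 3 members by edgeR, or 5.45%, beside 6.75% of all genes. DESeq2 called 0 members, with 1 at an unadjusted p below 0.05, or 1.82%, beside 1.87% of all genes. Hdac1 had the highest slope, 0.45 per doubling (SE 0.16, adjusted p = 0.433 in edgeR), and Hdac7 the lowest, -0.47 (SE 0.18, adjusted p = 0.505 in edgeR). The third was Smarcc2, with -0.36 (SE 0.17, adjusted p = 0.739 in edgeR). The median slope was -0.11 over members, 0.0034 over all genes tested and -0.026 over coding genes. A slope below 0 was found for 46 of 55 members, against 49.3% of all genes. Fitted to coding genes alone, 42 members were below 0, against 50% of genes. With the second tables, 38 members were, against 50.2% of genes. Without replicate 2 the members' median slope was 0.12, so the direction rests on that library.

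Neighbours in the same pathways were taken from a list of 84 further genes, 77 of which reached 1 TPM in every library and 44 of which reached 10 TPM. Their median was 14.0 ± 4.73 TPM (SD, n = 3), against 27.1 ± 5.98 TPM for the 55 members. Of the 82 that were tested for a slope, 0 were called in either direction by edgeR, and 2, or 2.44%, had an unadjusted p below 0.05, beside 6.75% of all genes. Other histone writers ran from Nsd1, a methyltransferase of lysine 36 of histone H3, at 70.85, 98.41 and 116.42 TPM, to Suv39h1, at 1.70, 2.47 and 2.82 TPM. Other erasers and corepressors ran from Sirt7, at 57.3 ± 17.9 TPM, to Hdac11, at 0.68 ± 0.52 TPM (SD, n = 3 for each). Partners in Polycomb and MLL complexes ran from Eed, which binds Ezh1 and Ezh2, at 41.3 ± 13.6 TPM, to Dpy30 at 1.45 ± 0.74 TPM (SD, n = 3 for each). Other remodeller subunits ran from Chd3, at 66.1 ± 14.9 TPM (SD, n = 3), to Smarca1, which was listed at 0 in every library. Other DNA methylation genes ran from Tdg, a glycosylase that removes oxidised methylcytosine, at 14.1 ± 5.001 TPM, to Tet1, at 0.14 ± 0.07 TPM (SD, n = 3 for each), so that of the TET genes Tet2 and Tet3 were above 60 TPM in every library and Tet1 was below 1.

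Reads shared between genes bear on some of these values. For 14 members, or 25.5%, an expected count was more than 0.005 from a whole number in at least 1 library, as for 30.1% of coding genes at or above 1 TPM. Such values can arise where the authors' estimate divides reads between genes. Exon bases are shared with another gene in 25 members, with a gene on the other strand in 19, and over 10% of exon bases are shared in 3, Kdm3b, Hdac4 and Chd2. Kdm6b shares 4.11% of its exon bases with the antisense gene Kdm6bos, which had a mean of 15.1 TPM, and Kmt2e shares 9.31% with Srpk2, at 34.0 TPM. No source used here states whether strand was used in counting, so reads from a gene and its antisense partner cannot be told apart.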

How the data were processed

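Total RNA of the chromatin fraction was measured in the 3 libraries of a single group. Reads were quantified by the authors on mm10 (GRCm38) with annotation M21 and without pooling replicates, per the file headers and listings. They deposited expected counts and TPM per gene and transcript (first tables), and estimated counts and TPM per transcript made without an alignment file (second tables). The sources used here do not give the tools, aligner or strand setting. Deposited TPM is scaled over all entries, so abundant small RNAs lower every other gene. Entries that name no annotated gene held 1.08%, 0.299% and 0.332% of counts and were left out.

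All 55536 gene identifiers matched GENCODE M21. Members, lists and rules were chosen with earlier results of these data known. Per-library values were given for the 2 highest and the lowest gene of each of 7 classes, the 5 largest and 3 smallest pair differences, the 5 highest and 3 lowest coefficients of variation, the 4 highest and 4 lowest noncoding shares, called members, and genes differing over 4 times between tables (0 genes). Expected counts were rounded for edgeR 4.0.16 (R 4.3.3; TMM, filterByExpr; 1 residual degree of freedom, so p-values rest on scatter pooled across genes). In simulated data the slope test recovered 81.5% of 200 slopes of 1 among 14647 genes and 100% of slopes of 2. It also called 11 and 4 unchanged genes. The changed genes were drawn from those with higher counts, and every gene was given the same scatter. Slopes of the size fitted to members, from -0.47 to 0.45, were not simulated, so recovery at that size is not known. Pseudocounts were 0.1, with 1 and 0.01 as alternatives. Other alternatives were the second tables, rescaling over coding genes, other limits, isoform types, DESeq2 1.42.0, its size factors, no filter, coding genes alone, and each replicate left out. The limit for a gene at 0 is 3 counts, which is 0.184, 0.185 and 0.241 CPM in replicates 1, 2 and 3, for counting error only. Python 3.11.15, numpy 2.4.6, pandas 2.3.3, scipy 1.17.1 and matplotlib 3.10.9 were used.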

Additional observations from a re-analysis of the deposited data

How the results depend on the processing

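With the second tables, the median log2 levels of writers, erasers and remodellers were 5.88, 5.13 and 4.95, against 5.17, 4.44 and 4.55. The difference of writers and remodellers was 0.93 there, that of DNA methylation enzymes and writers 0.66, and that of erasers and remodellers 0.18, the reverse of -0.12. With CPM per kb, an alternative added after the data were seen, writers exceeded erasers by 0.42 and remodellers by 0.18, and DNA methylation enzymes exceeded writers by 1.499. The median noncoding share was 50.3% in the second tables, 33.2% with retained introns alone and 13.5% as a share of expected counts. The median coefficient of variation was 12.2% after rescaling, and 14.6% to 32.4% with 1 replicate left out. Genes called for a slope were 88 in edgeR with the filter, 284 without a filter, 160 over coding genes alone and 158 with the second tables, and 0 members were called in any of these, with DESeq2 or with its size factors. The members' median slope ran from -0.31 to 0.12 with 1 replicate left out, and was above 0 without replicate 2. The cause of these shifts was not tested. Pairs turned direction on coding isoforms for Ep300 and Crebbp (-0.034), Kat2a and Kat2b (-1.32), Hdac4 and Hdac5 (0.12) and Kdm3a and Kdm3b (-0.41), in the second tables for Kat2a and Kat2b (-0.98) and Smarca2 and Smarca4 (0.47), and per kb for Kdm3a and Kdm3b (-0.034). The other 112 recomputed pair differences kept their direction, though not always their size, as with 0.085 for Kdm4a and Kdm4b in the second tables, against 1.67. No paired analysis was possible because there is 1 group. With 2 libraries a slope has no test, groups of 3 are too small for a test of single outlying libraries, and the 3 libraries bound what any test could show.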
